A study of Mus musculus with 20 samples.

Results

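The microglial marker genes described here are Cx3cr1, P2ry12, Tmem119, Csf1r, Aif1, Trem2, Tyrobp, Itgam and Cd68, a set of 9 named genes out of 35580 genes quantified. They were chosen by name, and the values of all 35 of their annotated transcripts were summed per gene in each of 20 brain samples. All 9 were detected in every sample and all 9 passed the low-count filter in every comparison.

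The samples were polyadenylated RNA from hippocampus and from neocortex (labelled as cerebral cortex) of 13.5 month old C57BL/6J male mice. WT mice were compared with miR-324-null mice, in which the Mir324 locus was deleted by CRISPR/Cas9 in the whole animal. There were 5 samples in each of the groups WT hippocampus, miR-324-null hippocampus, WT neocortex and miR-324-null neocortex. The founders were of mixed C57BL/6 and CBA/ca background and were backcrossed to C57BL/6J. Crosses of heterozygous animals then gave both the WT line and the miR-324-null line. Genotype and line therefore cannot be told apart. The deletion is in every cell type, so it is not particular to microglia. The labels do not say which hippocampus and neocortex samples came from the same mouse. Levels of Mir324 itself were not analysed here, so the deletion was not checked in these libraries.

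Microglia are the resident macrophages of the brain. They depend on signals through the receptor Csf1r to survive, survey neurons through the receptors Cx3cr1 and P2ry12, and sense lipids and cell debris through Trem2, which signals through the adaptor Tyrobp. In the undisturbed brain P2ry12, Tmem119 and Cx3cr1 are used as homeostatic markers, and when microglia become reactive these tend to fall whereas Trem2, Tyrobp and Cd68 tend to rise. In tissue RNA, a change in any of the genes can come from a change in the number of microglia or in the RNA per cell, and these cannot be told apart.

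The libraries held 12752439 to 19617765 estimated counts. Markers of hippocampus and neocortex separated the tissues as labelled, although the summed level of 4 hippocampus markers was 10.2 to 25.7 TPM (transcripts relative to the library total, corrected for length) in miR-324-null neocortex against 8.13 to 13.3 TPM in WT neocortex. Summed choroid plexus markers reached 6930 TPM in a WT hippocampus library and 5990 TPM in a miR-324-null hippocampus library, with medians of 93.7 and 146 TPM in those groups. In neocortex they reached 1280 TPM in a miR-324-null library (median 86.3) and at most 73.0 TPM in WT libraries (median 32.1). The library of miR-324-null neocortex replicate 5 stood apart: without it, the number of genes that differed between genotypes in neocortex went from 47 to 566.

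MicroRNAs (miRNAs) repress transcripts mainly through sites in their 3′UTRs, so those of the microglial genes were searched for matches. Both mature arms of miR-324 are shown because their seeds, bases 2 to 8 in capitals, define what was searched (RefSeq, GRCm38.p6, chr11:70012060-70012082 and chr11:70012095-70012114, plus strand). The paper also describes another form of miR-324-3p with a different seed, which was not searched.
mmu-miR-324-5p: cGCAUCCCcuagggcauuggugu
mmu-miR-324-3p: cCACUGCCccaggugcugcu

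A complete match to the seed of miR-324-5p, GGGATGC, was present in 1 of the 9 genes, against 8.95% of 21144 genes with an annotated 3′UTR. A match to the seed of miR-324-3p, GGCAGTG, was present in 0 of the 9, against 15.51% of all genes. The match was in Tmem119, which encodes a transmembrane protein of microglia, and began at base 812 of the 1167-base 3′UTR of transcript Tmem119-201 (exonic, GRCm38, chr5:113794066-113794095, minus strand). It is printed because it is the site through which a member could respond directly, with the match in capitals and followed by an A opposite the first base of the miRNA.
Tmem119-201 site: agttggaatatGGGATGCagggcgtctggc

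A seed match is a description of the sequence and not evidence of binding. Tmem119 was not called between genotypes in either tissue: its log2 fold change was −0.10 ± 0.089 (SE) in hippocampus and 0.02 ± 0.080 in neocortex, with 95% intervals of −0.29 to 0.10 and −0.16 to 0.19.

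The members lie on 7 chromosomes. Cx3cr1 (ENSMUSG00000052336.7) is at chr9:119901616-120069879, P2ry12 (ENSMUSG00000036353.13) at chr3:59216272-59262871, Tmem119 (ENSMUSG00000054675.5) at chr5:113793729-113800516 and Csf1r (ENSMUSG00000024621.16) at chr18:61100598-61132149. Aif1 (ENSMUSG00000024397.14) is at chr17:35170991-35176068, Trem2 (ENSMUSG00000023992.14) at chr17:48346401-48354147, Tyrobp (ENSMUSG00000030579.10) at chr7:30413760-30417585 and Itgam (ENSMUSG00000030786.18) at chr7:128062640-128118491. Cd68 (ENSMUSG00000018774.13), at chr11:69664213-69666153, is the member on the chromosome of the deletion, 345.9 kb from Mir324. Itgam shares 3450 of its 5024 exonic bases with a read-through gene on the same strand, Gm49368, to which at most 3 counts were assigned in any sample, so the division of reads between the pair is uncertain. On the opposite strand Csf1r overlaps Hmgxb3 over 873 exonic bases, and the libraries were made with a stranded kit.

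Per length of transcript, the adaptor Tyrobp was the most abundant of the microglial genes, at a mean of 46.5 TPM over the 20 samples, followed by the survival receptor Csf1r at 42.1 TPM and the nucleotide receptor P2ry12 at 35.6 TPM. The fractalkine receptor Cx3cr1 was at 24.7 TPM and Tmem119 at 20.7 TPM. The lysosomal protein Cd68 (15.7 TPM), the calcium-binding protein Aif1, also known as Iba1 (13.5 TPM), Trem2 (11.6 TPM) and the integrin subunit Itgam, also known as CD11b (8.66 TPM), were lower. Neighbours in this order mostly overlapped between samples of a group. Tmem119 lay apart from Cd68 in every group except miR-324-null neocortex, where the ranges overlapped.

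The precision of these levels differs between genes. Csf1r rested on 1218 to 2081 estimated counts per sample, Cx3cr1 on 602 to 1176 and P2ry12 on 466 to 821, whereas Aif1 rested on 50 to 93, Trem2 on 83 to 142 and Cd68 on 84 to 180. Tyrobp, the highest by TPM, is a short transcript and rested on 111 to 211 counts. The SD of the TPM values within a group was 3.40% of the mean for Tmem119 in WT neocortex at its smallest and 26.9% for Aif1 in miR-324-null hippocampus at its largest.

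The sum of the TPM of all 9 genes was 212 to 251 (median 232) in WT hippocampus and 204 to 223 (median 217) in miR-324-null hippocampus. It was 200 to 225 (median 220) in WT neocortex and 177 to 234 (median 225) in miR-324-null neocortex. All groups overlapped, and the lowest sum was that of miR-324-null neocortex replicate 5.

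**Figure D1:**
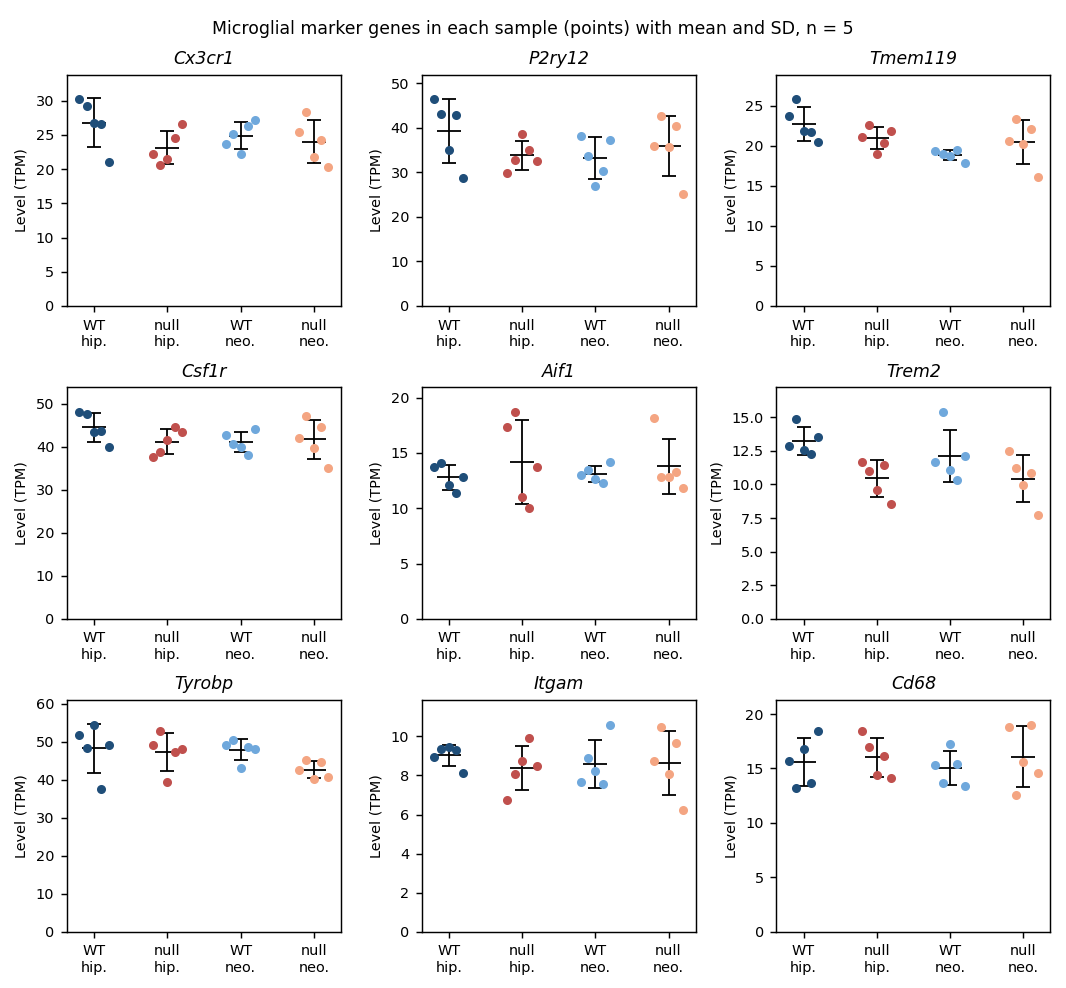
Level in TPM (y axis, from 0) of each microglial marker gene in each of the 20 samples (points), grouped by genotype and tissue on the x axis, with the mean and SD of the 5 samples. The groups overlap for most genes; in WT hippocampus Trem2 lies between 12.3 and 14.9 TPM, above the 8.55 to 11.7 TPM of miR-324-null hippocampus, and Tmem119 lies higher in WT hippocampus than in WT neocortex.

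The first comparison asked whether loss of miR-324 changed these genes in the hippocampus. None of the 9 passed edgeR's quasi-likelihood test at an adjusted p of 0.05, where 0.115% of 14796 genes did. At an unadjusted p of 0.05 1 of the 9 passed, against 11.1% of all genes, and none passed with DESeq2 or limma after adjustment. All 9 fold changes were below 0, with a median of −0.10 on the log2 scale against 0.001 for all genes, of which 49.7% were below 0; with TPM or with a correction for transcript length, Aif1 and Cd68 turned above 0 and 7 of the 9 stayed below it.

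Trem2 had the lowest fold change. Its level in WT hippocampus was 12.9, 14.9, 12.6, 12.3 and 13.5 TPM in replicates 1 to 5, and in miR-324-null hippocampus it was 11.7, 11.0, 9.55, 11.5 and 8.55 TPM. The groups did not overlap in TPM, as for 1.64% of all genes tested, but in CPM (counts relative to the library size, scaled by TMM), where 2.55% of genes were apart, the highest null sample, at 7.49, exceeded the lowest WT sample, at 7.48. The means were 8.36 ± 0.705 CPM for WT hippocampus and 6.66 ± 0.795 CPM for the null group (SD, n = 5). The log2 fold change was −0.33 ± 0.11 (SE; 95% interval −0.57 to −0.09), with an adjusted p of 0.325 by edgeR. Leaving out each sample in turn gave −0.38 to −0.28, with adjusted p from 0.329 to 0.579.

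The partner of Trem2, Tyrobp, differed by −0.03 (95% interval −0.32 to 0.25) in the same comparison. The surveillance receptors were at −0.20 (−0.42 to 0.02) for Cx3cr1 and −0.13 (−0.31 to 0.05) for P2ry12, and Csf1r was at −0.12 (−0.25 to 0.02). Itgam, Aif1 and Cd68 lay between −0.08 and −0.03. Markers of several other cell types were also mostly below 0 in this comparison: 4 of 4 endothelial, 5 of 5 oligodendrocyte and 4 of 5 astrocyte genes, with medians of −0.25, −0.12 and −0.10. Neuron markers went the other way, with 1 of 4 below 0 and a median of 0.06. None of these markers was called, and their part in the direction of the microglial genes was not tested.

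In neocortex, again none of the 9 genes passed the test, where 0.315% of 14930 genes did, and none passed with DESeq2 or limma. Of the 9, 6 were below 0 and the median was −0.02, against 0.005 for all genes, of which 48.1% were below 0. At an unadjusted p of 0.05 1 passed, against 12.2% of all genes. This was Tyrobp, at 49.2, 50.5, 43.1, 48.6 and 48.0 TPM in the WT samples and 42.6, 45.0, 40.3, 44.6 and 40.6 TPM in the miR-324-null samples. The WT sample at 43.1 TPM lay inside the null range. On the CPM scale Tyrobp was 11.8 ± 1.09 in WT and 10.2 ± 0.594 in miR-324-null neocortex, a log2 fold change of −0.21 ± 0.083 (95% interval −0.39 to −0.03) with an adjusted p of 0.325 by edgeR.

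Trem2 was at −0.22 (95% interval −0.53 to 0.09) in neocortex, with WT values of 11.7, 15.4, 11.0, 10.3 and 12.2 TPM and null values of 12.5, 11.3, 9.93, 10.8 and 7.71 TPM. These ranges overlapped, and the lowest value was that of replicate 5. Cd68 was at 0.13 (−0.12 to 0.38), the highest of the 9, and P2ry12, Tmem119, Csf1r and Itgam were within 0.02 of 0, with intervals that reached −0.28 and 0.28. Without miR-324-null neocortex replicate 5 there was still no member past the test.

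**Figure D2:**
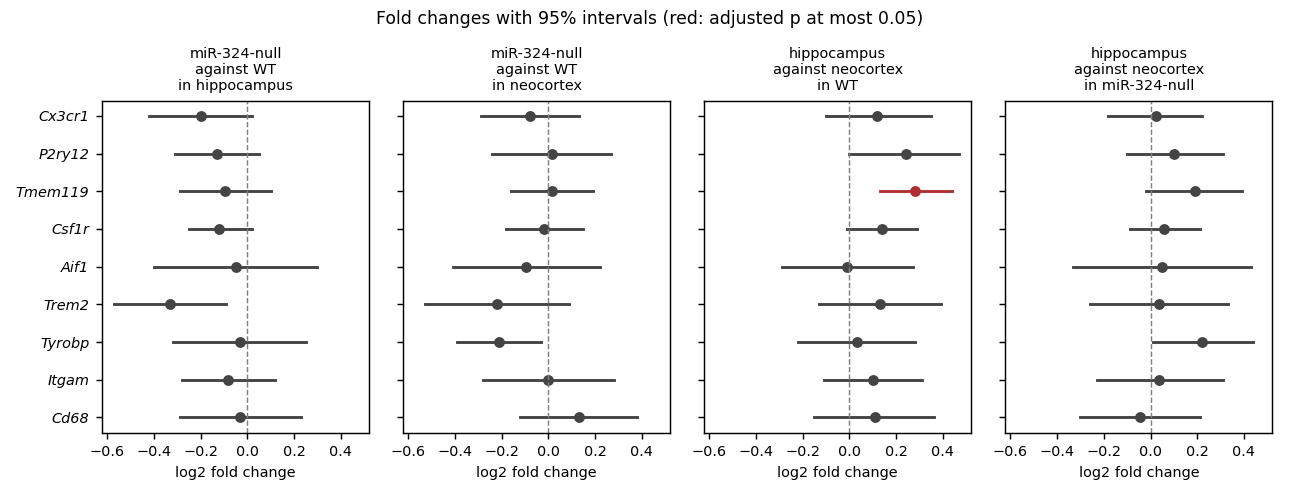
Log2 fold change (x axis) of each microglial marker gene in 4 comparisons with its 95% interval from edgeR; red marks an adjusted p of at most 0.05. The single red point is Tmem119 in WT hippocampus against WT neocortex, at 0.28.

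The tissues were then compared within each genotype. In WT mice 1 of the 9 microglial genes differed, against 36.1% of 14894 genes tested, and 2 had an unadjusted p under 0.05, against 44.1%. The gene that differed was Tmem119, which was higher in hippocampus. Its level was 32.1, 32.0, 27.7, 26.7 and 25.3 CPM in the hippocampus samples and 22.7, 25.2, 22.6, 24.2 and 23.6 CPM in the neocortex samples. The groups lay apart on this scale and in TPM, as they did, in either direction, for 26.5% and 19.8% of all genes. The means were 28.8 ± 3.11 and 23.7 ± 1.11 CPM (SD, n = 5), and the log2 fold change was 0.28 ± 0.074 (SE; 95% interval 0.13 to 0.44), with an adjusted p of 0.00823 by edgeR. Tmem119 was called under all 9 alternative settings, with adjusted p from 0.00392 to 0.0225, and in all 10 fits that left out a sample. Of 5 astrocyte markers 4 were called higher in WT hippocampus and 1 lower, where 18.1% and 18.0% of all genes were. They summed to 621 to 792 TPM, against 453 to 508 TPM in WT neocortex. Of 4 neuron markers 3 were called lower and 0 higher, and the 4 summed to 3140 to 3400 against 4220 to 4680 TPM. The part of these in the Tmem119 difference was not tested.

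P2ry12 had the next highest tissue difference in WT mice. Its hippocampus values were 49.5, 44.5, 40.8, 39.7 and 36.0 CPM and its neocortex values 31.7, 36.0, 31.4, 34.6 and 45.6 CPM. The groups overlapped through neocortex replicate 5, which was above the other 4 samples of its group and above 4 of the 5 hippocampus samples. The log2 fold change was 0.24 ± 0.11 with an adjusted p of 0.106 by edgeR; without WT neocortex replicate 5 it was 0.337 (adjusted p 0.0098) and without WT hippocampus replicate 5 it was 0.294, and in both cases it was called. The other 7 genes lay between −0.01 (Aif1) and 0.14 (Csf1r), and 1 of the 9 was below 0, as were 50.1% of all genes. The median of the 9 was 0.12, against −0.001 for all genes.

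In miR-324-null mice none of the 9 genes differed between the tissues, where 27.4% of 15033 genes did; 1 had an unadjusted p under 0.05, against 38.5% of all genes, and DESeq2 and limma also called none. Tmem119 was 28.2, 30.2, 23.6, 25.1 and 27.8 CPM in hippocampus and 25.5, 26.8, 22.3, 24.7 and 19.8 CPM in neocortex. The groups overlapped, with a log2 fold change of 0.19 (95% interval −0.02 to 0.39) and an adjusted p of 0.162 by edgeR. Tyrobp was at 0.22 (0.01 to 0.44; adjusted p 0.122) and was called, at 0.294, when miR-324-null hippocampus replicate 3 was left out. The higher hippocampus marker levels of miR-324-null neocortex given above bear on this comparison, and their part in it was not tested.

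Whether the genotype effect differed between tissues was tested with an interaction term over all 20 samples. None of the 9 genes passed, with adjusted p between 0.958 and 0.994 by edgeR, where 0.0195% of 15391 genes did, and none had an unadjusted p under 0.05, against 5.57% of all genes. DESeq2 and limma also called none. For Tmem119 the interaction was −0.11 (95% interval −0.36 to 0.15), so the tissue difference in WT mice and the smaller value in null mice were not shown to differ.

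The ligands, partners and downstream enzymes of the members formed a list of 10 genes, 9 of which passed the low-count filter. None was called between genotypes in either tissue. Between tissues in WT mice 2 were higher and 2 lower in hippocampus, where 18.1% and 18.0% of all genes were, and in null mice 1 was higher and 2 were lower, where 13.8% and 13.6% of all genes were. Of the genes called in null mice 50.3% were higher in hippocampus, and 34.3% of those called with limma on TPM. Csf1, a ligand of Csf1r, was 29.5 ± 3.64 CPM in WT hippocampus and 22.2 ± 2.27 CPM in WT neocortex (log2 fold change 0.41, adjusted p 0.0034 by edgeR). Il34, the other ligand of Csf1r and a product of neurons, was lower, at 37.0 ± 2.04 against 41.3 ± 1.85 CPM (−0.16, adjusted p 0.0296). In WT mice the 2 ligands of the same receptor thus differed in opposite directions, whereas Csf1r itself was not called (0.14, adjusted p 0.13). Neither ligand was called between the tissues of null mice. The part of the lower neuron markers of hippocampus in the Il34 difference was not tested.

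Cx3cl1, the neuronal ligand of Cx3cr1, was lower in hippocampus, at 571 ± 24.2 against 756 ± 55.0 CPM in WT mice (−0.40, adjusted p 5.87e-05 by edgeR) and 536 ± 34.7 against 727 ± 118 CPM in null mice (−0.43, adjusted p 0.00566). Cx3cr1 was not called in either genotype. The sum of 4 neuron markers was also lower in hippocampus, at 3140 to 3400 against 4220 to 4680 TPM in WT mice. In null mice it was 3240 to 3640 against 3670 to 4640 TPM. Of the 4, 3 were called lower in WT mice, where 18.0% of all genes were. In null mice 2 were called lower and 1 higher, where 13.6% and 13.8% of all genes were. The part of neuron markers in the Cx3cl1 difference was not tested. Plcg2, a phospholipase downstream of Trem2 and Csf1r, was higher in hippocampus in WT mice (6.92 ± 1.02 against 4.82 ± 0.599 CPM; 0.53, adjusted p 0.00679) and in null mice (0.48, adjusted p 0.0314). Inpp5d, a lipid phosphatase that opposes this signalling, was called in null mice, where it was lower in hippocampus (12.4 ± 1.49 against 15.3 ± 1.09 CPM; −0.30, adjusted p 0.0289), and was at −0.01 in WT mice. In the interaction test Inpp5d had an adjusted p of 0.88, so these were not shown to differ.

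Itgb2, the partner chain of Itgam, the kinase Syk and the sheddases Adam10 and Adam17, which cut Cx3cl1 and Trem2, were not called in any comparison. Between tissues or genotypes their fold changes lay between −0.19 and 0.04, the lowest being Itgb2 between genotypes in hippocampus (adjusted p 0.616). Il34 was at 0.16 in miR-324-null against WT hippocampus and 0.13 in neocortex, with adjusted p of 0.372 and 0.364. Hcst, an adaptor that can pair with Trem2, did not pass the filter and was at most 2.90 TPM in any sample.

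None of the 6 myeloid transcription factors listed was called between genotypes. Between tissues of WT mice 1 was called higher and 1 lower in hippocampus, where 18.1% and 18.0% of all genes were. In null mice 1 was also called higher and 1 lower, where 13.8% and 13.6% of all genes were. The values of those called lower are not reported here. Cebpa, a factor of myeloid differentiation, was higher in hippocampus, by 0.85 in WT mice (11.0 ± 1.41 against 6.14 ± 0.764 CPM, adjusted p 6.23e-05 by edgeR) and by 0.74 in null mice. The gene is also transcribed outside microglia in the brain, so these values do not belong to microglia alone.

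Macrophage promoters often carry purine-rich sites for the ETS factor PU.1, encoded by Spi1, with the core GAGGAA. The RefSeq table of promoters (GRCm38.p6, from 250 bases before to 50 after the start site) held 6 of the 9 members. The core was present on either strand in 4 of the 6, Itgam, Cd68, Aif1 and Trem2, against 28.28% of 32851 promoters. The longer motif GAGGAAGT was present in 0 of the 6 and in 3.2% of all. The windows of the 3 genes with the closest match upstream of the start site are printed. Those of Cd68, at −225 and at 29 after the start, are not. Capitals mark the core, which reads TTCCTC as all 3 printed lie on the strand opposite to the gene. Positions are from the RefSeq start site. The gene interval given above for Aif1 starts further upstream, so its core lies within that interval.
Itgam, chr7:128062613-128062642, plus strand, core at −15: tctcatagctttTTCCTCatacttctctgt
Aif1, chr17:35176042-35176071, minus strand, core at −7: ataggcacccagTTCCTCcatcctattgtt
Trem2, chr17:48346349-48346378, plus strand, core at −40: agcctcctttccTTCCTCcctccctcacgc

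These letters are a description of the windows, and binding was not measured.

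A second list held 13 other homeostatic microglia genes. Between genotypes none was called; 10 of 13 were below 0 in hippocampus (median −0.12) and 8 of 13 in neocortex (median −0.07). In WT mice 3 of 13 were higher in hippocampus than in neocortex and none was lower, where 18.1% of all genes were higher, and the median of the list was 0.15. The 3 were Olfml3, a secreted matrix protein, at 24.6 ± 2.46 against 19.5 ± 2.70 CPM (0.34, adjusted p 0.015 by edgeR), the lectin Siglech at 15.8 ± 2.22 against 12.9 ± 1.08 CPM (0.29, adjusted p 0.0397) and the selectin ligand Selplg at 33.1 ± 2.58 against 28.9 ± 2.71 CPM (0.20, adjusted p 0.0494). In null mice 0 of the 13 were called, where 27.4% of all genes were.

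Genes of activated, disease-associated microglia formed a list of 14. None was called between genotypes, of 11 tested in hippocampus and 10 in neocortex, and the medians were −0.05 and 0.006. Between tissues of WT mice 5 of 10 tested were higher in hippocampus and 2 were lower, where 18.1% and 18.0% of all genes were. Among the higher were the lipoprotein lipase Lpl (1.03, 36.1 ± 3.20 against 17.8 ± 1.50 CPM), the glycoprotein Gpnmb (1.22), the chemokine Ccl6 (0.73) and the apolipoprotein Apoe (0.38). The lower were the growth factor Igf1 (−0.41) and the lysosomal protease Ctsb (−0.32). In null mice 3 of 11 were higher, Lpl (1.05), Gpnmb (1.16) and the galectin Lgals3 (1.17), and Ctsb was lower (−0.19), where 13.8% and 13.6% of all genes were higher and lower. Several of these, Apoe, Lpl, Igf1 and Ctsb among them, are made by neurons or other glia as well. Of the members that tend to rise in reactive microglia, Cd68, Trem2 and Tyrobp, none was called between tissues with all samples. Their log2 fold changes were 0.11, 0.13 and 0.03 in WT mice and −0.04, 0.04 and 0.22 in null mice, in that order. Tyrobp was called in null mice in 1 fit that left out a sample, as given above. The part of microglial state in the values of this list was not tested.

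Most markers of other macrophages and of blood were below the levels of the 9 genes, with the exception of Stab1. The sum of 8 markers of border macrophages was 14.0 to 26.2 TPM over the 20 samples, and the highest of them was Stab1, at 8.66 to 18.4 TPM, which is in the range of Aif1, Trem2 and Itgam; Mrc1 reached at most 1.51 TPM, Cd163 at most 0.717 TPM and Lyve1 at most 0.614 TPM. The sum of 8 blood leukocyte markers was 2.84 to 11.0 TPM, and Ccr2, a receptor of monocytes, was at most 0.445 TPM. In hippocampus the border macrophage sum was 19.3 to 26.2 TPM in WT and 15.0 to 21.5 TPM in miR-324-null samples. Of 4 such markers tested there, 3 were below 0 (median −0.39) and none was called, and their part in the microglial values was not tested. Between the tissues of WT mice 0 of 5 border macrophage markers were called, where 36.1% of all genes were.

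Beyond the group means, the 9 genes varied together from sample to sample. Once the mean of each group was subtracted from log2 CPM, 35 of the 36 pairs of members had a positive correlation over the 20 samples, with a median Pearson r of 0.53 and a range from −0.03 (Aif1 with Itgam) to 0.81. The correlation with the mean of the other 8 was highest for Csf1r (0.87), P2ry12 (0.80), Tmem119 (0.79) and Cx3cr1 (0.71). It was 0.68 for Trem2, 0.61 for both Tyrobp and Itgam, and 0.47 for both Aif1 and Cd68. Aif1 and Cd68, the least alike, were also among the genes with the lowest counts, but so was Trem2, at 0.68. The part of low counts in these correlations was not tested. Members of one library share its depth, its scaling and its dissection, so these values are a description and were not tested.

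Single samples were therefore high or low across the list. In WT hippocampus replicate 1 and in miR-324-null neocortex replicate 1 all 9 genes were above the mean of their group, with median deviations of 0.18 and 0.15 on the log2 scale. In miR-324-null neocortex replicates 3 and 5 all 9 were below it, with medians of −0.12 and −0.24. The lowest deviation in replicate 5 was −0.43.

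**Figure D3:**
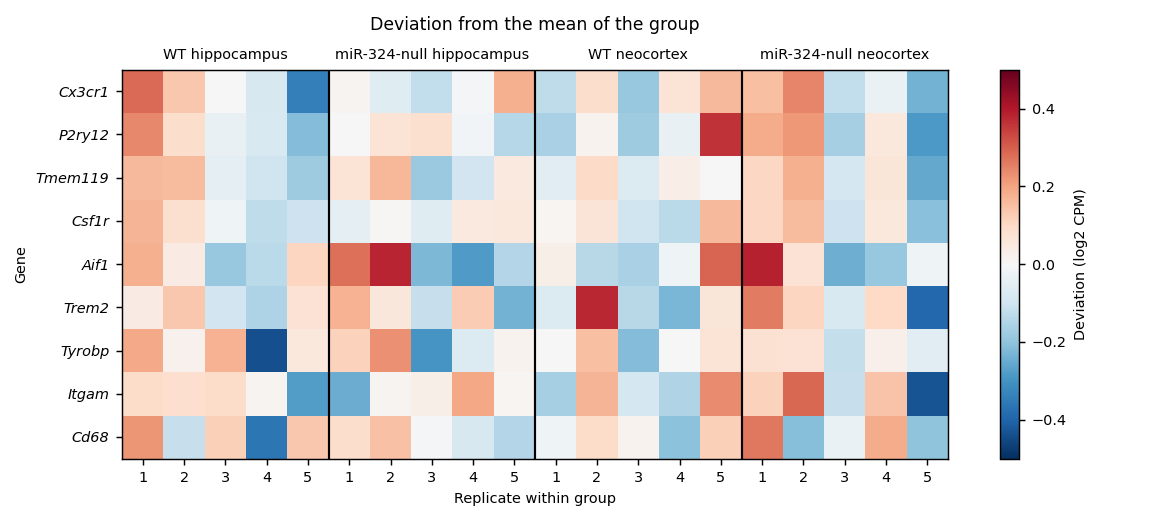
Deviation of each microglial marker gene (rows) from the mean of its group in each sample (columns, replicates 1 to 5 of 4 groups) in log2 CPM, red above and blue below. Columns tend to be of one colour, as in miR-324-null neocortex replicate 5, where all 9 genes are below the mean.

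Of 15382 genes compared, the 10 whose within-group deviations were most like the mean of the members included lysosomal and immune genes. Among them were Mlc1, a membrane protein of astrocytes (r = 0.86), Ctss, the protease cathepsin S (0.85), Ly86, a partner of a Toll-like receptor homologue (0.84), Vsir, an immune checkpoint protein (0.84), and Unc93b1, which guides Toll-like receptors to endosomes (0.84). Also among them were Hbegf, a growth factor (0.83), Rab3d, a small GTPase of vesicles (0.82), Lpcat2, a phospholipid acyltransferase (0.82), and Lap3, an aminopeptidase (0.81). Lpcat2 is on the list of homeostatic genes. On log2 TPM, 4 of the 10 were again among the highest 10.

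The share of each transcript in the TPM of its gene was compared last. Tmem119 and Tyrobp were nearly all one transcript, Tmem119-201 (98.1% on average) and Tyrobp-202 (95.6%), and Csf1r-201 made up 85.3% of Csf1r. Trem2-201 was 78.2% of Trem2, Cd68-201 74.4% of Cd68, Aif1-203 71.9% of Aif1, Itgam-203 66.2% of Itgam and Cx3cr1-201 65.4% of Cx3cr1. P2ry12 was the most divided, with P2ry12-204 at 50.7% and a range over samples from 11.8% to 83.8%. Such ranges show how far the estimated shares moved from one sample to the next, and the cause was not tested.

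Genes with at least 2 transcripts of 5% or more were tested, which left out Tmem119 and Tyrobp. In 72 tests on 18 transcripts no share differed between groups after adjustment (exact permutation test, two-sided, smallest adjusted p 0.571); 5 had an unadjusted p under 0.05, and 5 samples against 5 cannot give a p below 0.00794. That smallest p was reached by Trem2-201 in miR-324-null mice, where its share was 76.9, 80.8, 92.6, 76.6 and 78.9% in hippocampus and 68.1, 70.3, 70.7, 75.2 and 72.9% in neocortex. The groups did not overlap, and the means were 81.2 ± 6.64% and 71.4 ± 2.69% (SD, n = 5). In WT mice the means were 83.3 ± 7.95% and 76.9 ± 6.40% and the groups overlapped. Aif1-202, a transcript without a coding sequence, had a share of 0 in all 5 miR-324-null hippocampus samples and 18.4, 0, 18.9, 4.34 and 11.4% in the WT samples (exact permutation p 0.0476, adjusted p 0.686).

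**Figure D4:**
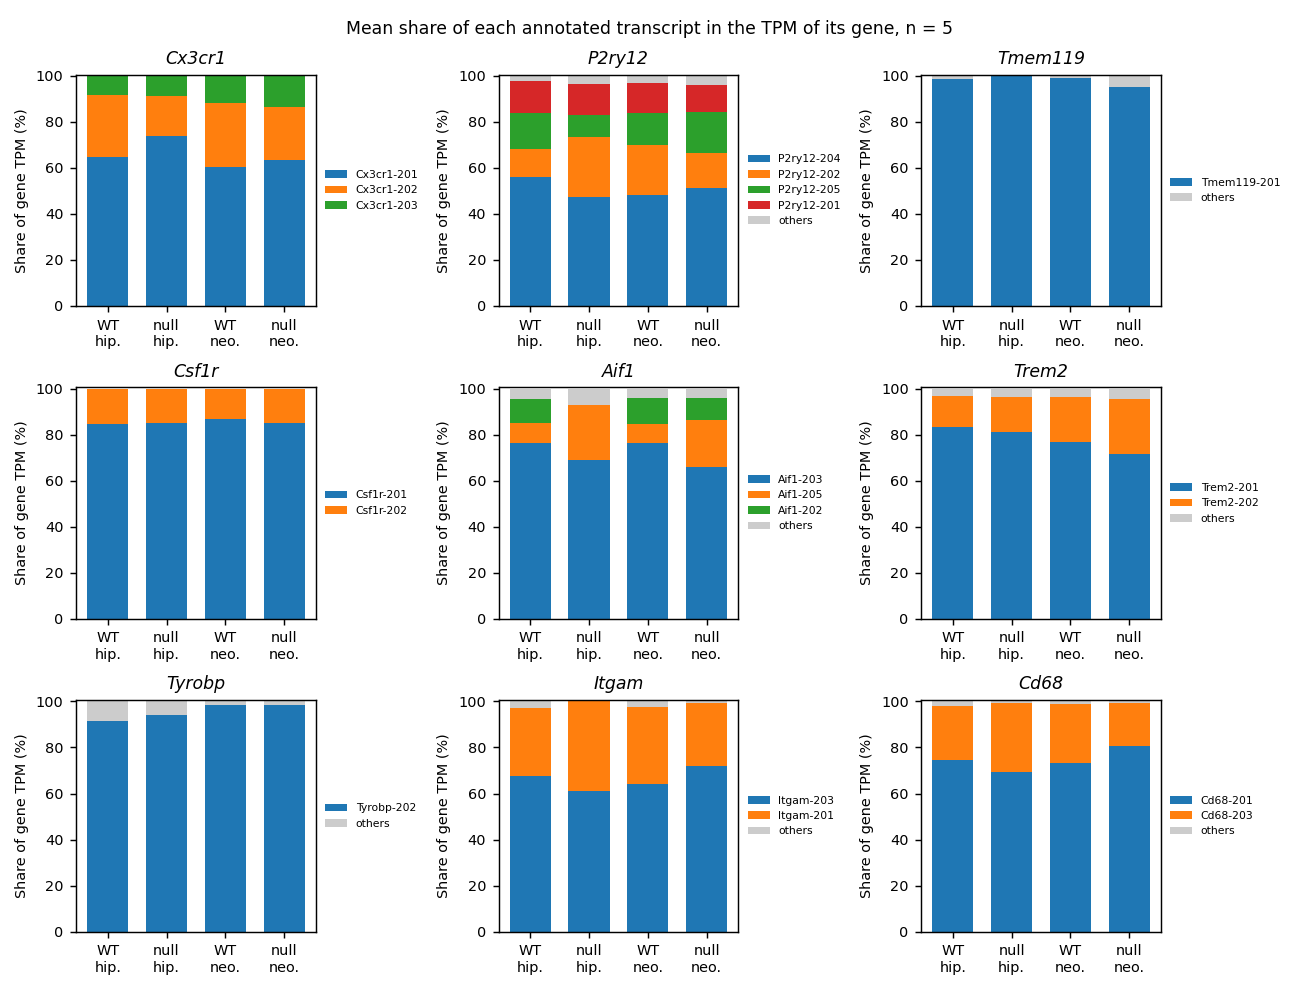
Mean share (y axis, percent) of each annotated transcript in the TPM of its gene for the 4 groups, n = 5; transcripts under 5% on average are pooled in grey. Tmem119, Tyrobp and Csf1r are mostly one transcript, P2ry12 is divided among several, and none of the 18 transcripts tested, which were of the other 7 genes, differed in share between groups after adjustment.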

How the data were processed

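RNA from 20 samples of hippocampus and neocortex, 5 per group, had been sequenced from stranded mRNA libraries (Illumina TruSeq). The authors quantified transcripts with kallisto against the mouse GRCm38 transcriptome and deposited estimated counts, TPM and effective lengths for 115270 transcripts per sample (the labels name a human build, GRCh38, although the transcript identifiers are of mouse). Here, 113580 transcripts matched GENCODE M21 (GRCm38) and were summed to 35580 genes; the other 1690 held at most 0.556% of the estimated counts.

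Summed estimated counts were rounded and tested with edgeR 4.0.16 (TMM, default low-count filter, quasi-likelihood test without a block, Benjamini-Hochberg over all genes tested, called at an adjusted p of at most 0.05) in R 4.3.3. Alternatives were DESeq2 1.42.0 size factors and Wald test, offsets for transcript length, limma 3.58.1 on log2(TPM + 0.1), other low-count filters, 1 fit of all samples, leaving out each sample, and a block for the replicate number; adding the counts of Gm49368 to Itgam was chosen after seeing the data. On data simulated for the hippocampus genotype comparison, edgeR tested 14690 genes and found 86.4% of the 200 that had been given a log2 change of 1; smaller changes were not simulated. Intervals are at 95%. Transcript shares were compared by exact permutation (scipy 1.17.1) for transcripts of at least 5% on average in genes with at least 2 such transcripts, which left out Tmem119 and Tyrobp.

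Members and gene lists were chosen with earlier results of these data known, so no list was tested as a whole. Named were the 9 members, all ligands and partners, list genes called in a comparison (at most 6 per list and comparison, by absolute log2 fold change) and the 10 genes most like the members. Values of some of these genes are not reported here. Whether replicates were separate mice is not stated for each sample, and if they were not, the p-values measure technical spread. The labels do not pair the samples, and same-numbered samples did not deviate together throughout, so the number was a block in an alternative only. A pairing of tissues by mouse was not excluded.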

Additional observations from a re-analysis of the deposited data

Results flagged for a closer look

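In WT hippocampus replicate 5, Itgam was at 20.3 CPM, below the other 4 samples of its group, which lay between 24.9 and 26.3 CPM; its gap to the nearest of them was above the critical value of Dixon's test (0.71 for 5 samples). This was the single flag in CPM among 36 groups of members tested, and chance flags about 1 in 20 such groups. In TPM that sample was at 8.131, against 8.945 to 9.452 in the others of its group, and flags on that scale are not reported here. Without that sample Itgam was still not called in any comparison.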

How the results depend on the processing

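No member passed the test between genotypes or in the interaction under any alternative, and Tmem119 passed between the tissues of WT mice under every one. Leaving out 1 sample gave 1 to 2 members called between tissues in WT mice and 0 to 1 in null mice. Fold changes of uncalled members crossed 0 as follows, and none of these values was called. In the hippocampus genotype comparison Aif1 was 0.134, 0.133 and 0.104 and Cd68 0.035, 0.033 and 0.047 with the length offset in edgeR, DESeq2 with length and limma on TPM. In neocortex, in the same order, Aif1 was 0.019, 0.011 and 0.057; Csf1r was 0.014 with limma and Itgam 0.001 with at least 10 counts in every sample. Between tissues of null mice P2ry12 was −0.005, −0.012 and −0.071 and Cd68 0.079, 0.072 and 0.004, and with limma Cx3cr1 was −0.049, Csf1r −0.013 and Itgam −0.030. With 1 sample left out, the genotype values in hippocampus ranged from −0.155 to 0.019 (Aif1), −0.126 to 0.037 (Tyrobp) and −0.112 to 0.025 (Cd68). In neocortex they ranged from −0.044 to 0.110 (P2ry12), −0.031 to 0.079 (Tmem119), −0.080 to 0.098 (Itgam) and −0.060 to 0.033 (Csf1r). Between tissues of WT mice they ranged from −0.058 to 0.071 (Aif1) and −0.015 to 0.125 (Tyrobp). In null mice they ranged from −0.057 to 0.153 (Aif1), −0.053 to 0.103 (Trem2), −0.059 to 0.113 (Itgam), −0.035 to 0.086 (Cx3cr1) and −0.098 to 0.026 (Cd68). The interaction ranged from −0.055 to 0.152 (Aif1) and −0.171 to 0.005 (Itgam). The cause was not tested. Of the 10 genes most like the members, 4 were kept on log2 TPM.

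Calls over all genes depended on the setting: 17 in hippocampus by genotype became 139 with the DESeq2 Wald test, 85 with DESeq2 and length, 83 in 1 fit of all samples, 9 with at least 10 counts in every sample, 11 with limma, 4 with the replicate block and 10 to 31 with 1 sample left out. In neocortex 47 became 240, 184, 56, 26, 22 and 30 in that order, 30 with the length offset, and 27 to 566 with 1 sample left out, the 566 without miR-324-null neocortex replicate 5. In the interaction 3 became 11 with DESeq2, 1 with limma or the length offset and 1 to 20 with 1 sample left out, the 20 without the same sample.

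Whether replicate numbers pair the tissues of a mouse could not be decided. Same-number correlations between tissues ran from −0.102 to 0.101 in WT mice and from 0.0165 to 0.177 in null mice. Some samples correlated best with their own number and others did not. Between genotypes, which cannot share a mouse, these correlations ran from −0.172 to 0.121. The replicate block changed no call of a member (0 called between genotypes, and for Tmem119 between WT tissues a log2 fold change of 0.279). Low counts limit Aif1, Trem2 and Cd68 most.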
